A study of Mus musculus with 4 samples.

Results

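Adrenergic, muscarinic and cyclic AMP (cAMP) signalling genes were described across the cell lineages of the mouse right ventricle (RV). The set held 9 of the 27998 genes counted: Adrb1, Adra1a, Adra1b, Chrm2, Adcy5, Adcy6, Pde3a, Pde4b and Pde4d. They were selected by symbol, and each symbol matched a single gene. Each is described in cardiomyocytes (CMs), endothelial cells (ECs), fibroblasts, mural cells (pericytes and smooth muscle cells) and macrophages, and between hearts with RV volume overload (RVVO) and sham hearts.

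The data were single-nucleus RNA counts from 4 libraries of RV nuclei taken at postnatal day 21 (P21), 2 from sham and 2 from RVVO mice. All mice were wild-type C57/BL6J operated at P7. In RVVO mice, a puncture joined the abdominal aorta to the inferior vena cava, and sham mice had the same operation without the puncture. The labels name no drug for these libraries and do not say whether a library is a single mouse or a pool, so p-values measure only the spread between libraries.

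Adrenergic receptors carry the signal of noradrenaline and adrenaline. The beta-1 receptor couples through a stimulatory G protein to adenylyl cyclases, which make cAMP, and cAMP raises the rate and force of the heartbeat through protein kinase A, whereas alpha-1 receptors signal through Gq and calcium. The muscarinic M2 receptor for acetylcholine opposes this through an inhibitory G protein that holds back adenylyl cyclase and, through its beta-gamma subunits, opens an inward rectifier potassium channel, and phosphodiesterases end the signal by hydrolysing cyclic nucleotides in local compartments of the cell.

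Of 48428 barcodes that passed the quality filters, 27257 were assigned to a lineage by their counts (unique molecular identifiers, UMIs) of 5 marker genes. They comprised 13846 CM, 6978 endothelial, 2935 fibroblast, 1867 mural and 1631 macrophage nuclei. CM nuclei were the deepest, with a median of 4608 to 7804 UMIs per library, against 2360.5 to 4232.5 in the other lineages. RVVO 1 had the highest median among CM nuclei. For each of the 5 lineages, a marker list not used for the assignment was highest in its own lineage. The CM list (Ttn, Myh6, Tnnt2, Mybpc3 and Actn2) summed to between 34303 and 39127 CPM (UMIs of a gene scaled to 1000000 UMIs of the sum) in CM nuclei and also to between 8256 and 16408 CPM in the other lineages. A list of atrial CM genes (Myl7, Myl4 and Sln) was not highest in CM nuclei. Its mean sum was 48.4 CPM there, against 59.0 CPM in fibroblast and 73.8 CPM in mural nuclei. A lymphoid list (Cd79a, Ms4a1, Cd3e, Skap1 and Bank1) summed to between 217 and 375 CPM in macrophage nuclei, against at most 42.2 CPM elsewhere. An epicardial list (Msln, Wt1 and Upk3b) was highest in endothelial nuclei, at 150 to 207 CPM against at most 123 CPM elsewhere. Between 25 and 60 barcodes were shared by any pair of libraries. Xist, transcribed from the inactive X chromosome, stood at 1498 and 1510 CPM in the sham libraries and at 0.826 and 0.591 CPM in the RVVO libraries, and the Y-linked gene Ddx3y was at 0.348 and 0.206 CPM against 100.5 and 118.4 CPM. Sex and operation therefore cannot be told apart wherever RVVO is compared with sham. Sex was not the only such factor. The median mitochondrial percentage was 1.47 and 1.38 in the sham libraries against 0.654 and 0.535 in the RVVO libraries. Kept barcodes had a median of 2434 and 2265 UMIs in sham against 4823 and 3442 UMIs in RVVO. The percentage of barcodes assigned to a lineage was also lower in both sham libraries. These measures, taken over whole libraries, thus went with the operation as well. Within CM nuclei the median UMIs overlapped between the groups, at 4658.5 and 4838 in sham against 7804 and 4608 in RVVO. They also overlapped in fibroblast nuclei, and were higher in both RVVO libraries in endothelial, mural and macrophage nuclei.

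All 9 genes were higher in CM nuclei than in the mean of the other 4 lineages, by 1.20 (Pde3a) to 4.63 (Chrm2) on the log2 scale, in edgeR's quasi-likelihood test with Benjamini-Hochberg adjustment and library as a block. The background was broad, since 40.4% of the 13520 genes tested were higher in CM nuclei. The median log2 difference was 3.67 over the 9 genes and -0.03 over all genes tested. The 9 genes were chosen with earlier results of these data known. Normalization set part of these sizes. With library totals in place of the trimmed mean of M-values (TMM), the median of all genes in CM nuclei shifted to -0.63, and the split of higher and lower genes went from 5461 and 5711 to 2908 and 8900. All 9 genes stayed higher in CM nuclei with library totals, by 0.59 (Pde3a) to 4.03 (Chrm2).

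Outside CM nuclei the 9 genes separated into those with a second lineage and those without. Of the 9, 3 were also higher in mural nuclei (Adcy5, Adcy6 and Pde3a, with 17.2% of all genes tested higher there). Adra1a was higher in fibroblast nuclei (22.2% of all genes), Adrb1 in macrophage nuclei (23.9% of all genes) and none in endothelial nuclei (26.5% of all genes). All 9 were lower in endothelial nuclei, as were 34.0% of all genes. The mean of the others includes CM nuclei, where all 9 were high, so this does not set endothelial nuclei below the remaining lineages. For Chrm2 and Pde4b, the endothelial mean was the highest outside CM nuclei, in ranges that overlapped the next lineage. Library totals also moved the split of higher and lower genes in fibroblast nuclei from 3003 and 3891 to 4614 and 2282, in mural nuclei from 2330 and 2600 to 3224 and 1716, and in macrophage nuclei from 3227 and 3873 to 4516 and 2032. These 5 second-lineage differences kept their direction and their call under every alternative normalization and assignment tried.

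**Figure D1:**
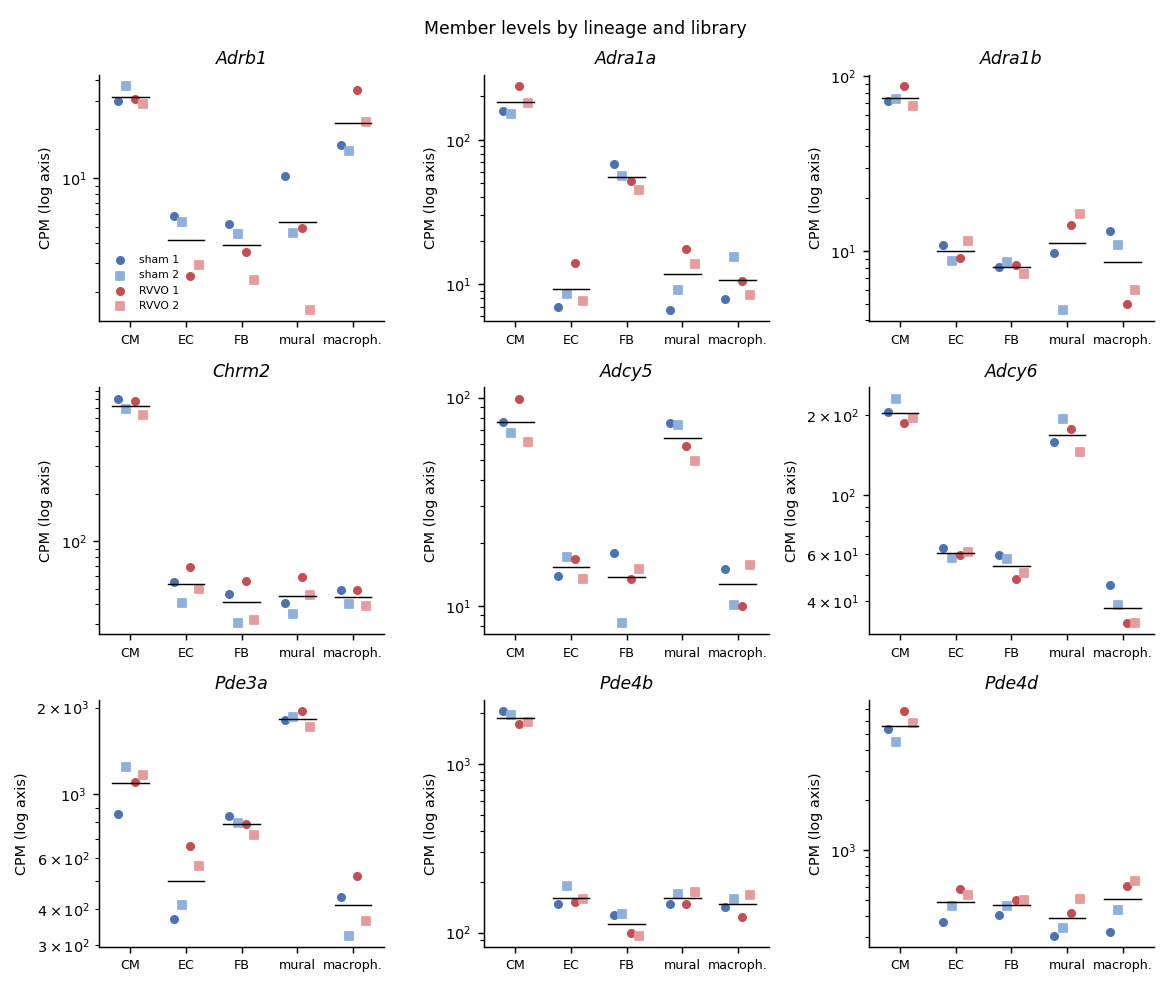
Level of each of the 9 genes by lineage, in CPM on a log axis. Each point is the sum of all nuclei of a lineage in a library (blue, sham; red, RVVO) and bars are means of the 4 libraries. The CM points stand above all others except for Pde3a, where mural nuclei are highest, and for Adrb1, Adcy5 and Adcy6, where CM values overlap those of macrophage or mural nuclei.

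Among the receptors, Adrb1, the gene of the beta-1 adrenergic receptor (chr19:56722199-56733113, plus strand, GRCm38), was at 29.8, 37.0, 30.8 and 28.8 CPM in CM nuclei of sham 1, sham 2, RVVO 1 and RVVO 2. In macrophage nuclei it was at 15.96, 14.7, 35.0 and 22.1 CPM in the same order. These ranges overlapped, with means of 31.6 and 21.9 CPM, whereas mural, endothelial and fibroblast nuclei had means of 5.34, 4.18 and 3.90 CPM that did not differ beyond the spread between libraries. The log2 difference from the other lineages was 2.86 ± 0.16 (SE, derived from the F statistic) in CM nuclei and 1.45 ± 0.25 in macrophage nuclei. The adjusted p was 5.8e-14 and 2.8e-05 by edgeR. Adrb1 was sparse at the level of the nucleus. After each nucleus was thinned to 1000 UMIs, 2.80% to 4.13% of CM nuclei and 1.09% to 3.15% of macrophage nuclei per library held a UMI of Adrb1. The share was 0.159% to 0.817% in endothelial, 0% to 0.633% in fibroblast and 0% to 1.33% in mural nuclei. The mural and macrophage ranges thus overlapped.

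Adra1a, which encodes the alpha-1A receptor (chr14:66635251-66771168, plus strand), was at 157, 151, 236 and 180 CPM in CM nuclei. In fibroblast nuclei it was at 67.8, 56.5, 51.5 and 44.9 CPM. Fibroblasts were thus the only other lineage whose libraries all stood above those of the remaining 3, whose means were 9.33 to 11.8 CPM. The log2 difference from the other lineages was 4.15 ± 0.11 in CM nuclei and 1.17 ± 0.14 in fibroblast nuclei, with adjusted p of 5.1e-20 and 4.4e-07 by edgeR. The Adra1a level in fibroblast nuclei was 21.8% to 43.0% of that in CM nuclei of the same library.

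Adra1b, which encodes the alpha-1B receptor (chr11:43774606-43901210, minus strand), was at 71.98, 74.0, 88.2 and 67.6 CPM in CM nuclei. The other 4 lineages had means of 8.12 to 11.2 CPM, and no neighbours in that order differed beyond their spread. CM nuclei exceeded the other lineages by 3.67 ± 0.12 on the log2 scale. Unlike Adra1a, Adra1b was not higher in fibroblast nuclei than in the mean of the others, which includes CM nuclei. It was lower there (log2 -1.18 ± 0.21, adjusted p = 7.4e-05 by edgeR), as it was in endothelial nuclei (-0.68 ± 0.18). Fibroblast values overlapped those of macrophage nuclei, so Adra1b was not particularly low in fibroblasts.

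Chrm2, the gene of the M2 muscarinic receptor (chr6:36388084-36528414, plus strand), was at 801, 692, 772 and 631 CPM in CM nuclei. Its means in the other lineages lay between 41.2 and 53.8 CPM, in overlapping ranges. It had the largest CM difference of the 9 genes, 4.63 ± 0.07 on the log2 scale. After thinning to 1000 UMIs, Chrm2 was found in 45.4%, 39.6%, 44.1% and 35.4% of CM nuclei and in 4.54% to 6.99% of endothelial nuclei.

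Of the cyclases, Adcy5 and Adcy6 encode the closely related types 5 and 6 of adenylyl cyclase, the main cAMP-producing enzymes of the heart. Adcy5 (chr16:35154877-35305738, plus strand) was at 76.6, 67.5, 99.0 and 61.1 CPM in CM nuclei. In mural nuclei it was at 75.8, 73.6, 58.3 and 49.5 CPM. CM and mural values overlapped, and both stood above the other 3 lineages, whose means were 12.7 to 15.4 CPM. Adcy6 (chr15:98589973-98610076, minus strand) showed the same order, at 206, 231, 187 and 194 CPM in CM nuclei. In mural nuclei Adcy6 was at 158, 193, 178 and 146 CPM. The mural difference from the other lineages was 1.48 ± 0.15 for Adcy5 and 1.14 ± 0.07 for Adcy6 on the log2 scale, with adjusted p of 2.2e-08 and 1.1e-11 by edgeR. Macrophage nuclei had the lowest Adcy6, with a mean of 37.7 CPM and no overlap with fibroblast nuclei.

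The phosphodiesterases held both the most widespread gene and genes with sharp CM differences. Pde3a (chr6:141249269-141507448, plus strand) encodes a phosphodiesterase that degrades cAMP, is inhibited by cyclic GMP and is the target of milrinone. It was at 1808, 1861, 1938 and 1717 CPM in mural nuclei. In CM nuclei Pde3a was at 857, 1248, 1102 and 1167 CPM. Mural nuclei thus had the highest level, all 4 of their libraries above those of CM nuclei, followed by CM nuclei, by fibroblast nuclei with a mean of 789 CPM and by endothelial and macrophage nuclei with overlapping means of 502 and 412 CPM. After thinning to 1000 UMIs, Pde3a was found in 72.7% to 77.9% of mural, 49.8% to 62.2% of CM, 44.8% to 51.3% of fibroblast and 16.7% to 23.4% of endothelial nuclei.

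Pde4b and Pde4d encode cAMP-specific phosphodiesterases of the rolipram-sensitive family. Pde4b (chr4:102087543-102607259, plus strand) was at 2054, 1956, 1735 and 1776 CPM in CM nuclei. Pde4d (chr13:108449948-109953461, plus strand) was at 5338, 4427, 6801 and 5825 CPM in CM nuclei. In the other lineages the means were 113 to 161 CPM for Pde4b and 390 to 502 CPM for Pde4d, with overlapping ranges between neighbours in the order of levels. CM nuclei exceeded the other lineages by 4.34 ± 0.06 for Pde4b and 4.25 ± 0.07 for Pde4d on the log2 scale. Pde4d was found in 92.5%, 89.8%, 96.3% and 95.1% of CM nuclei at 1000 UMIs and in 29.2% to 39.4% of endothelial nuclei.

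The low levels outside CM nuclei were set beside those of CM genes. Chrm2 in the other lineages was at 4.41% to 8.93% of its CM level in the same library, Pde4b at 5.40% to 9.76% and Pde4d at 5.70% to 11.2%. Ryr2, whose count in other lineages was held down by the assignment rule, was at 3.65% to 5.36% of its CM level. Cacna1c, which was not used for the assignment, was at 3.30% to 18.1%, Ttn at 16.4% to 32.1% and Myh6 at 39.3% to 67.0%. The part of free CM RNA in these low levels was not tested. Among the second-lineage levels, Pde3a in mural nuclei, at 147% to 211% of the CM level, and Adcy6, at 74.9% to 95.1%, stood above the Myh6 range in mural nuclei of 46.7% to 64.6%. Adcy5 in mural nuclei, at 58.9% to 109%, and Adrb1 in macrophage nuclei, at 39.7% to 114%, overlapped the ranges of Myh6 there, the latter being 39.3% to 64.3%. Adra1a in fibroblast nuclei, at 21.8% to 43.0%, overlapped the range of Ttn there, 16.5% to 26.5%, and that of Myh6, 40.7% to 57.5%.

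The upstream sequences of these genes are shown because cAMP acts on transcription through CREB, which binds the cAMP response element (full form TGACGTCA, half-site TGACG). RefSeq promoter windows on GRCm38.p6 were found for 6 of the 9 genes, 10 windows in all, and the 250 bases before each start site were searched on both strands. The full element was in none of the 10 and in 1.55% of all 32851 windows. The half-site, which the full element contains, was in 2 of the 10, against 17.8% of all windows. The windows holding it are given 5′ to 3′ on the plus strand with the half-site in capitals, that of Adrb1 at chr19:56721867-56722116 and one of 4 of Pde4b at chr4:102421305-102421554, where the letters are those of the opposite strand.
Adrb1: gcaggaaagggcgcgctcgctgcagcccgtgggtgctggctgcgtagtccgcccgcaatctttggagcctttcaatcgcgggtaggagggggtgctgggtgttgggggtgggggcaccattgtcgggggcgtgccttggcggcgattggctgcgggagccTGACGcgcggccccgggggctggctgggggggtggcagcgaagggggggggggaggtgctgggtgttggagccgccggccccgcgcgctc
Pde4b: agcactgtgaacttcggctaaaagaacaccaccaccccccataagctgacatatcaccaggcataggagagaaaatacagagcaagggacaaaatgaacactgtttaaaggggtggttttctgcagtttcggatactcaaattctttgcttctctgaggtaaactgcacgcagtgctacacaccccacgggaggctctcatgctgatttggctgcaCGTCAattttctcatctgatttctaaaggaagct
The Adrb1 half-site is followed by 85 bases and the Pde4b half-site by 29 bases before the start site. Such a match describes the letters only.

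RVVO was compared with sham within each lineage to ask whether volume overload changed these genes. None of the 9 passed the test in any lineage. In CM nuclei 0 of 9 passed at an adjusted p under 0.05 by edgeR, where 0.0467% of the 14987 genes tested passed. None of the 9 had an unadjusted p under 0.05 there, against 5.48% of all genes tested. In endothelial, fibroblast, mural and macrophage nuclei the share of all genes that passed was 0.186%, 0.121%, 0.0648% and 0.0723%. Unadjusted p was under 0.05 for 3, 1, 3 and 3 of the genes in these lineages, where 8.07%, 5.21%, 3.86% and 8.30% of all genes tested were under 0.05, and Adrb1 was not tested in mural nuclei, where its counts were too low. DESeq2 also called 0 of the 9 in each lineage, and no alternative tried called any of them in CM, fibroblast or mural nuclei.

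**Figure D2:**
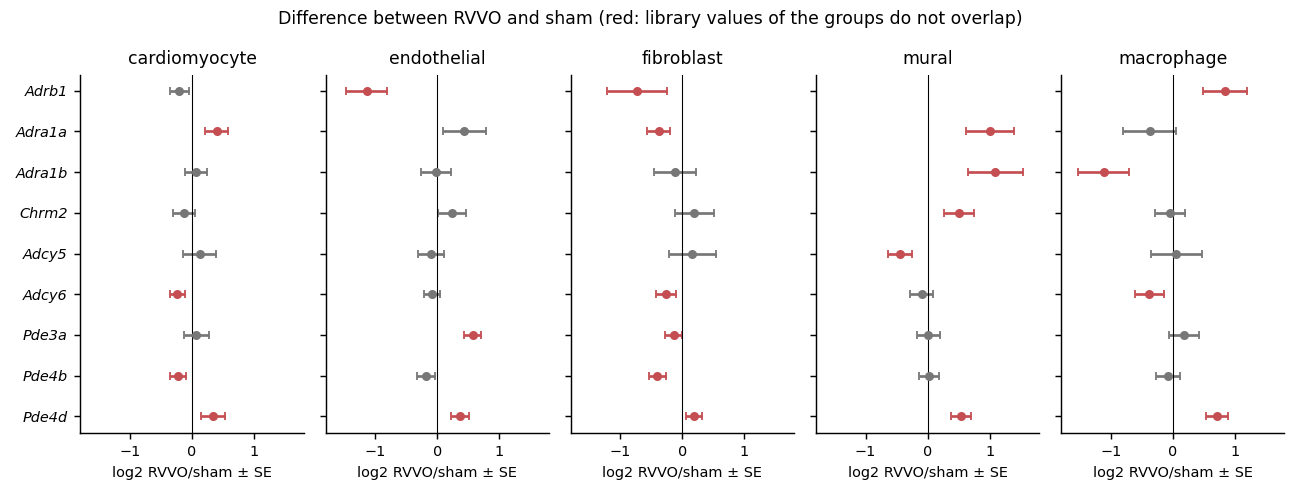
Difference of RVVO from sham for each gene and lineage, as log2 fold change ± SE derived from edgeR's F statistic, with 2 libraries per group. Red marks pairs of groups whose library values in CPM do not overlap. Pde4d lies above 0 and is red in all 5 lineages, and no difference passed the adjusted threshold. Within single lineages, 29.2% to 37.9% of all genes tested showed no overlap. The lineages come from the same libraries and are not independent.

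In CM nuclei no difference passed the test, and the largest in size, that of Adra1a, was 0.40 ± 0.18 on the log2 scale. The receptors differed by -0.20 ± 0.16 (Adrb1), 0.40 ± 0.18 (Adra1a), 0.06 ± 0.18 (Adra1b) and -0.12 ± 0.18 (Chrm2). The difference of Adra1a was 0.14 without RVVO 1 and 0.62 without RVVO 2, and that of Adrb1 was -0.05 without sham 2 and -0.34 without sham 1. The cyclases differed by 0.12 ± 0.27 (Adcy5) and -0.24 ± 0.12 (Adcy6), and the phosphodiesterases by 0.07 ± 0.20 (Pde3a), -0.23 ± 0.13 (Pde4b) and 0.33 ± 0.19 (Pde4d). Adjusted p lay between 0.904 and 0.990. The groups did not overlap for 4 of the 9 genes, with RVVO above sham for Adra1a and Pde4d and below it for Adcy6 and Pde4b. Over all genes tested, 35.3% showed no overlap in CM nuclei.

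Pde4d was the gene with the same order in every lineage, both RVVO libraries above both sham libraries in all 5. Outside CM nuclei, its level was 369 and 456 CPM in sham against 580 and 538 CPM in RVVO endothelial nuclei. In fibroblast nuclei it was 403 and 461 against 502 and 498 CPM, and in mural nuclei 304 and 336 against 419 and 502 CPM. The widest gap was in macrophage nuclei, at 319 and 433 CPM in sham against 606 and 651 CPM in RVVO, a log2 difference of 0.71 ± 0.18 with an adjusted p of 0.351 by edgeR. The log2 difference was 0.36 ± 0.14 in endothelial, 0.19 ± 0.13 in fibroblast and 0.54 ± 0.16 in mural nuclei, with adjusted p of 0.568, 0.999 and 0.999. Without a filter on low counts, Pde4d passed in macrophage nuclei (log2 0.72, adjusted p = 0.0101 by edgeR). That setting called 320 of 18531 genes there, against 8 of 11066 with the filter. The 5 lineages came from the same 4 libraries and are not independent observations. Within single lineages, 29.2% (mural) to 37.9% (macrophage) of all genes tested showed no overlap. The share of genes without overlap in all 5 was not counted. Outside CM nuclei Pde4d was at 5.70% to 11.2% of its CM level, and the part of free CM RNA in these differences was not tested.

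The beta-1 receptor gene Adrb1 had differences of opposite sign in macrophage and endothelial nuclei, neither of which passed the test. In macrophage nuclei both RVVO libraries stood above both sham libraries, from 16 and 19 UMIs in sham and 56 and 52 UMIs in RVVO, with a log2 difference of 0.85 ± 0.36 and an adjusted p of 0.596 by edgeR. It was 0.48 without RVVO 1 and between 0.74 and 1.18 without each of the other libraries. The share of macrophage nuclei with a UMI of Adrb1 at 1000 UMIs, 1.92% and 1.09% in sham against 3.15% and 1.63% in RVVO, overlapped between the groups. At 2000 UMIs the shares were 3.03% and 3.03% against 8.98% and 5.18%, without overlap. That depth left out 130 of 328 and 140 of 404 macrophage nuclei in sham, against 30 of 286 and 111 of 613 in RVVO. In endothelial nuclei Adrb1 was at 5.89 and 5.39 CPM in sham against 2.51 and 2.92 CPM in RVVO, a log2 difference of -1.14 ± 0.33 with an adjusted p of 0.379. In mural nuclei it rested on 17, 8, 7 and 2 UMIs.

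Other members whose groups did not overlap were scattered over the lineages. Pde3a was at 372 and 413 CPM in sham against 661 and 564 CPM in RVVO endothelial nuclei, a log2 difference of 0.57 ± 0.14 with an adjusted p of 0.284 by edgeR, or 0.0181 without a filter on low counts. Without that filter 474 of 20164 genes were called in endothelial nuclei, against 25 of 13464 with it. In endothelial nuclei 3 of 9 members did not overlap, where 37.4% of all genes did not. In fibroblast nuclei 6 of 9 did not overlap, against 32.8% of all genes, with Adrb1, Adra1a, Adcy6, Pde3a and Pde4b lower and Pde4d higher in RVVO. There Pde4b was at 126 and 129 CPM in sham against 99.7 and 95.9 CPM in RVVO (log2 -0.41 ± 0.14, adjusted p = 0.775). Adra1a, in the fibroblast values given above, differed by -0.38 ± 0.18 in fibroblast nuclei (adjusted p = 0.999), the other direction from CM nuclei.

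In mural nuclei 5 of 8 members tested did not overlap, against 29.2% of all genes. Adcy5 was lower in RVVO (log2 -0.45 ± 0.20, adjusted p = 0.999 by edgeR), while Adra1a, Adra1b, Chrm2 and Pde4d were higher. In macrophage nuclei 4 of 9 did not overlap, against 37.9% of all genes, and Adra1b there was at 12.97 and 10.8 CPM in sham against 5.002 and 5.94 CPM in RVVO, from 8 to 14 UMIs per library. A test of whether the RVVO effect in CM nuclei differed from the mean effect in the other lineages called 0 of the 9 genes, where 0.183% of 14184 genes passed. The smallest unadjusted p among the members was that of Chrm2, with a log2 difference of -0.35 ± 0.13 and an adjusted p of 0.462, and this difference was 0.0076 after nuclei were thinned to 1000 UMIs.

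Shares of CM nuclei with a UMI were also compared at 1000 UMIs per nucleus. The mean share for Pde4d was 91.2% ± 1.91 (SD, n = 2) in sham and 95.7% ± 0.864 in RVVO, and that for Adra1a was 11.3% ± 0.988 and 16.1% ± 3.75. For Pde4b it was 75.3% ± 0.00514 and 73.6% ± 1.05, for Adcy6 18.5% ± 1.48 and 16.7% ± 1.05, and for Adrb1 3.57% ± 0.796 and 2.81% ± 0.0134. At 2000 UMIs the groups overlapped for Adrb1, at 5.91% and 6.77% in sham against 6.22% and 5.54% in RVVO. The groups of Pde4d, Adra1a, Pde4b and Adcy6 did not overlap at that depth. At 1000 UMIs the groups overlapped for the remaining members. Their mean shares were 6.39% ± 0.250 and 7.30% ± 1.73 for Adra1b and 42.5% ± 4.14 and 39.7% ± 6.20 for Chrm2. For Adcy5 they were 6.47% ± 0.386 and 7.88% ± 2.21, and for Pde3a 55.6% ± 8.21 and 60.3% ± 2.73. The share of all genes without overlap was not counted for this measure. With 2 libraries per group there are 6 arrangements, so no exact two-sided permutation test can go below 0.3333.

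CM nuclei were not uniform in these genes. Nuclei with at least 3 UMIs of the atrial light chain genes Myl7 and Myl4 together numbered 0, 57, 19 and 173 in sham 1, sham 2, RVVO 1 and RVVO 2. Chrm2 was at 2429, 1813 and 1650 CPM in these nuclei of sham 2, RVVO 1 and RVVO 2. In nuclei without a UMI of either gene, it was at 650, 759 and 568 CPM in the same libraries and at 804 CPM in sham 1. Chrm2 was thus 2.39 to 3.74 times as high in the nuclei with atrial light chain UMIs, and Kcnj3, which encodes a subunit of the potassium channel that the M2 receptor opens, was 5.38 to 9.41 times as high.

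Pde4d and Adra1a had the opposite order. Pde4d was at 1961, 2820 and 3737 CPM in the nuclei with atrial light chain UMIs of sham 2, RVVO 1 and RVVO 2, against 4478, 6836 and 5934 CPM in those without. Adra1a was at 26.7, 27.4 and 125 CPM against 159, 233 and 183 CPM. The value in RVVO 1 rests on 19 nuclei, in which Adra1a had 5 UMIs. Pde4b, at 0.883 to 0.964 times its level in the nuclei without, showed little difference. Among CM nuclei without a UMI of either light chain gene, Pde4d remained above sham in both RVVO libraries, at 5323 and 4478 CPM in sham against 6836 and 5934 CPM in RVVO. The split was made from counts of Myl7 and Myl4 alone, and no test was run on it. In the nuclei with atrial light chain UMIs, Myl2 was at 0.663, 0.695 and 0.802 times its level in those without, in sham 2, RVVO 1 and RVVO 2. Sln was at 18.4, 27.2 and 4.80 times. The part of free atrial RNA in this split was not tested.

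**Figure D3:**
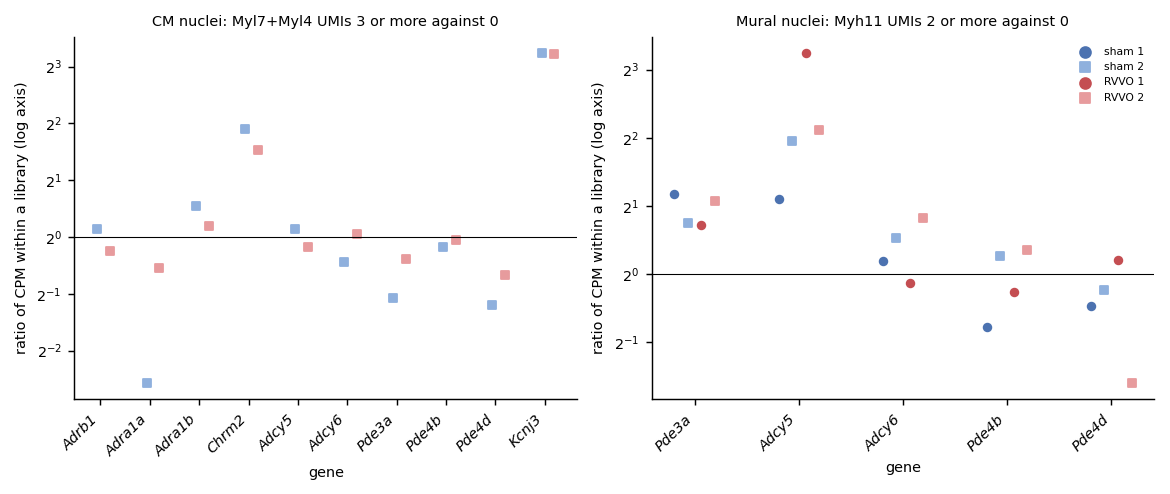
Ratio of CPM between subdivisions of a lineage within a library, on a log axis. Left, CM nuclei with at least 3 UMIs of Myl7 and Myl4 against those with 0, for the libraries with at least 50 such nuclei; right, mural nuclei with at least 2 UMIs of Myh11 against those with 0, in all 4 libraries. Chrm2 and Kcnj3 lie above 1 on the left, where Adra1a, Pde3a and Pde4d lie below it, and Pde3a and Adcy5 lie above 1 in each library on the right.

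Mural nuclei divided similarly by Myh11, the smooth muscle myosin heavy chain. Only 45, 33, 19 and 15 nuclei had at least 2 UMIs of Myh11. In them Pde3a was at 3508, 2970, 3045 and 3372 CPM, against 1555, 1763, 1850 and 1603 CPM in mural nuclei with none. Adcy5 was at 140, 243, 362 and 189 CPM against 65.0, 62.8, 38.3 and 43.5 CPM. Both genes were higher in the Myh11 nuclei of every library, by 1.65 to 2.26 times for Pde3a and 2.15 to 9.45 times for Adcy5, whereas Adcy6 and Pde4b varied on both sides of 1.

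The other 69 genes of the pathway list gave the setting of these results. Of the 59 that could be tested between lineages, 25 were higher and 32 lower in CM nuclei, with a median log2 difference of -0.32 against 3.67 for the 9 genes. The 9 genes and this list were both chosen with earlier results of these data known. By role, 8 of 8 effectors were higher in CM nuclei, as were 4 of 12 other phosphodiesterases. So were 6 of 10 genes of protein kinase A, its inhibitors and Epac, among them the inhibitor genes Pkia and Pkig. All 7 of 7 G protein genes were lower, against 40.4% of all genes higher and 42.2% lower. With library totals, 17 of the 59 were higher and 37 lower, against 21.5% of all genes higher and 65.8% lower. Among the 59, 6 effectors, 3 genes of the protein kinase A group and 3 phosphodiesterases were then higher, and the same count of 7 G protein genes was lower. The pathway genes with the largest CM differences were Kcnj3 (log2 4.54), Pde1c, a calmodulin-dependent phosphodiesterase (4.43), Bves, which encodes a cAMP-binding Popeye protein (4.25), and Akap6, which anchors protein kinase A at the nuclear envelope (4.17).

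Each other lineage was higher in further genes of the same families, some of them shared between lineages. Endothelial nuclei were highest in Rapgef3, which encodes the cAMP sensor Epac1 (log2 2.86), the cyclase gene Adcy4 (2.55), the cyclic GMP-stimulated phosphodiesterase gene Pde2a (2.44) and Rapgef4, which encodes Epac2 (2.30). Fibroblast nuclei were highest in the cyclase gene Adcy2 (2.96), the phosphodiesterase gene Pde1a (2.73), the G protein gene Gnao1 (2.42) and Chrm3, the gene of the M3 muscarinic receptor (1.56). Chrm3 was also higher in endothelial nuclei (log2 1.06, adjusted p = 5.6e-06 by edgeR). Its endothelial libraries, at 112 to 295 CPM, overlapped its fibroblast libraries, at 183 to 259 CPM. Mural nuclei were highest in the phosphodiesterase genes Pde8b (4.76) and Pde4c (4.12), in Rgs4, a G protein regulator (4.31), and in Prkar1b, a regulatory subunit of protein kinase A (3.05). Macrophage nuclei, the second lineage of Adrb1, were highest in Arrb2, which encodes beta-arrestin 2 (3.92), Pde3b, the paralogue of Pde3a (3.46) and the cyclase gene Adcy7 (3.08). Adcy7 was also higher in fibroblast nuclei (1.47).

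**Figure D4:**
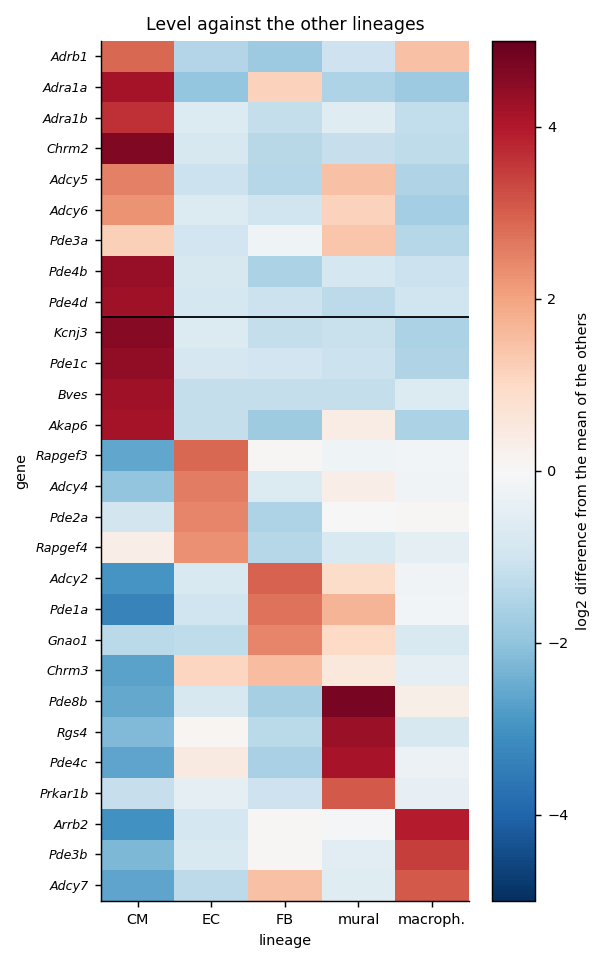
Log2 difference of each lineage from the mean of the other 4, for the 9 genes (above the line) and for up to 4 other pathway genes highest in each lineage (below it). Red is higher and blue lower. The CM column is red for all 9 genes, and the genes below the line fall into blocks by lineage because they were chosen that way.

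Between RVVO and sham, 0 of the 62 other pathway genes tested in CM nuclei passed, where 0.0467% of all genes tested passed. Of the 62, 7 had an unadjusted p under 0.05 by edgeR, against 5.48% of all genes tested. The median log2 difference of the 62 was -0.09, against 0.06 for the 9 genes and 0.01 for all genes tested. The smallest unadjusted p was that of Adcy1, a calcium-stimulated cyclase gene, at 0.755 and 1.15 CPM in sham against 3.36 and 4.62 CPM in RVVO (log2 2.01 ± 0.35, adjusted p = 0.772 by edgeR). It was followed by Rgs2, a brake on Gq signalling, at 24.3 and 24.5 against 37.9 and 33.9 CPM (log2 0.52 ± 0.14), and by Rapgef4 (-0.49 ± 0.14), the pacemaker channel gene Hcn2 (-0.45 ± 0.13) and Pde8a (-0.54 ± 0.15), all with an adjusted p of 0.843. No other pathway gene passed in the other 4 lineages, where 55 to 59 were tested and 0.0648% to 0.186% of all genes passed.

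The genes closest to each member in pattern were found by Pearson's r of log2(CPM + 1) over the 20 sums of 5 lineages and 4 libraries, which share their libraries, as a description. Chrm2 was closest to Mhrt (r = 0.994), Fhod3 (0.991) and Palld (0.991), and Adra1b to Fsd2 (0.972), Qrsl1 (0.972) and Nrap (0.967). Adra1a was closest to Sync (0.963), Ehbp1 (0.963) and Phka1 (0.955). Pde4b was closest to Gm20732 (0.991), Kcnd2 (0.990) and Clasp1 (0.987), and Pde4d to Gm21747 (0.986), 1110034G24Rik (0.983) and Fgfr2 (0.982). Adcy5 and Adcy6, each with CM and mural levels, shared Ybx2 (0.968 and 0.958) and Art3 (0.968 and 0.952) among their 3 closest, with Cobll1 (0.950) and Parm1 (0.961) as the others. Pde3a was closest to Ndrg3 (0.957), Palm2 (0.928) and Pard3 (0.926), and Adrb1, with the loosest match, to Prune2 (0.911), Pstpip2 (0.905) and Cep85 (0.905).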

How the data were processed

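The authors deposited a matrix of unscaled UMI counts for each library, made with the 10x 3′ v3 kit. According to the submitters' processing notes, Cell Ranger 3.0.1, STAR and Seurat 3.0.2 were used with GRCm38 and mm10, whereas the file headers name Cell Ranger 5.0.0. Whether introns and strand were used in counting was not given in the sources used here. Nuclear RNA is rich in introns, and Chrm2, Adcy6 and Pde3a each overlap a counted gene on the opposite strand, so their counts could be affected.

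Barcodes were kept if they had 200 genes or more and less than 10% of their UMIs from mitochondrial genes. A CM nucleus had at least 10 UMIs of Ryr2 and at most 1 of each other marker. The other lineages had fewer than 10, and at least 2 UMIs of their own marker (Ptprb for ECs, Pdgfra for fibroblasts, Pdgfrb for mural cells and Mrc1 for macrophages) and at least 2 times the next. Barcodes with 10 or more UMIs of Ryr2 and 2 or more of another marker, 3137 in all, were left out as possible doublets, and no doublet caller was run. A further 18034 kept barcodes met no rule. Counts were summed per lineage and library. CPM is the UMIs of a gene scaled to 1000000 UMIs of such a sum. The floor of 3 UMIs lay between 0.110 and 2.99 CPM.

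The library was the replicate. Sums were tested with edgeR 4.0.16 in R 4.3.3 (TMM, filterByExpr, quasi-likelihood test, Benjamini-Hochberg adjustment over all genes tested, threshold 0.05), between RVVO and sham within a lineage, between a lineage and the mean of the others with library as a block and without the 5 marker genes, and for the difference of the RVVO effects. On simulated counts of 14746 genes in CM nuclei, the test of RVVO against sham called 87.6% of genes changed by 2 and 40.2% of genes changed by 1 on the log2 scale, with 7.46% false calls among those called. Shares of nuclei were taken after thinning to 1000 UMIs, which left out 449 shallower nuclei. Most of these were from the sham libraries. Among CM nuclei, 59 were left out in sham 1, 91 in sham 2, 1 in RVVO 1 and 0 in RVVO 2. DESeq2 1.42.0, other normalizations, filters, assignments and depths and leaving out each library were the alternatives. The SE given with a log2 difference is its size divided by the square root of edgeR's quasi-likelihood F statistic. It is not a standard error of the fitted coefficient. Counting intervals and floors cover counting error only.

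The 9 genes, the pathway and marker lists and the tests were chosen with earlier results of these data known. Of other pathway genes, those named were any that passed between RVVO and sham, the 5 with the smallest p in CM nuclei and up to 4 with the highest difference per lineage. A gene that this rule names is not reported here. For each member the 3 genes of highest r among those at 10 CPM or more in a sum were named. The splits by Myl7 and Myl4 and by Myh11 were likewise made with the data seen. Positions are from GENCODE M21 and promoter windows from RefSeq.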

Additional observations from a re-analysis of the deposited data

How the results depend on the processing

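With 2 libraries per group, differences smaller than the spread between libraries could not be called, and genes with few UMIs, such as Adrb1 outside CM nuclei, limit the comparison further. The differences between lineages given for the 9 genes kept their direction and call under all alternatives run. Genes called between RVVO and sham numbered 7 in CM, 25 in endothelial, 15 in fibroblast, 7 in mural and 8 in macrophage nuclei. With DESeq2 they numbered 76, 152, 40, 15 and 34. Without a filter on low counts they numbered 27, 474, 193 and 320 in CM, endothelial, fibroblast and macrophage nuclei. The looser assignment gave 15 and 7 in endothelial and fibroblast nuclei, and thinning to 1000 UMIs gave 46 in endothelial nuclei. Leaving out each library gave 7 to 9 in CM, 45 to 103 in endothelial, 17 to 75 in fibroblast, 7 to 129 in mural and 3 to 219 in macrophage nuclei. Genes called between lineages after thinning numbered 4440, 2935 and 4377 in fibroblast, mural and macrophage nuclei, where 10194 genes were tested, against 6894, 4930 and 7100 of 13520. For the difference of the RVVO effect in CM nuclei from the others, 26 genes were called, against 16 with assignment by share, 4 with the looser and 12 with the stricter assignment and 9 after thinning, and the difference of Chrm2 went from -0.35 to 0.0076 after thinning. The cause of these shifts was not tested, beyond the fewer genes tested after thinning.

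Sham and RVVO libraries share replicate numbers, but deviations of same-numbered libraries correlated by 0.0231, 0.0435, -0.00665, 0.000151 and -0.000861 in CM, endothelial, fibroblast, mural and macrophage nuclei, so the numbers were not taken to pair them. With the replicate block, 7, 56, 9, 39 and 8 genes were called in the same order, none of them a member.

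Leaving out single libraries turned the direction of the uncalled CM differences of Adcy5 (-0.32 to 0.46), Adra1b (-0.19 to 0.28), Chrm2 (-0.32 to 0.051) and Pde3a (-0.17 to 0.35). That of Pde4d stayed between 0.17 and 0.48. Differences in the share of CM nuclei with a UMI ranged in the same way from -7.16 to 1.61 points for Chrm2, -0.323 to 2.13 for Adra1b, -0.153 to 2.97 for Adcy5 and -1.14 to 10.5 for Pde3a. Without thinning, the differences in share turned to 1.92 points for Adrb1, 3.26 for Chrm2, 3.94 for Adcy6 and 4.72 for Pde4b.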
